A study of Mus musculus with 4 samples.

Results

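Lysosomes and the autophagy pathway that feeds them are described here by 46 listed genes, out of 53465 genes counted in the ventricles of newborn mice. The list was chosen with earlier results of these data known. All 46 were found by symbol and all 46 had enough reads to be tested. They comprised 3 transcription factors, 20 genes of the lysosome itself (5 membrane proteins, 6 cathepsins, 6 glycosidases and acid lipase, 3 soluble proteins) and 23 autophagy factors (9 of initiation and nucleation, 6 of conjugation, 5 of the Atg8 family and 3 cargo receptors). All libraries came from mice at postnatal day 1. The 2 control libraries carried floxed Ctnnb1 on both chromosomes and lacked the Cre transgene (alphaMHC-Cre-), and the 2 knockout-labelled libraries carried the same floxed alleles with the transgene (alphaMHC-Cre+). The floxed alleles were therefore common to both groups. The alphaMHC promoter drives Cre in cardiomyocytes, so other cells of the ventricle are not targeted, and the presence of Cre cannot be told apart from loss of the gene. Ctnnb1 encodes β-catenin, a junction protein and the co-activator of Wnt target genes. The series title sets the question as one of energy metabolism and mitochondrial function in cardiomyocytes around birth.

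Autophagy encloses cytoplasm, organelles or glycogen in a double membrane and delivers them to the lysosome, where acid hydrolases break them down. The ULK1 kinase complex starts the process, a lipid kinase complex marks the membrane, 2 ubiquitin-like conjugation systems attach LC3 and GABARAP proteins to it, and receptors such as p62 bring in the cargo. In the newborn heart, autophagy is known for supplying nutrients after the placental supply ends. The transcription factors TFEB, TFE3 and MITF bind E-box-type sites before many lysosomal and autophagy genes.

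The libraries held between 34027143 and 45651797 counts in genes. Levels are given as CPM, counts divided by a library's total and put on a common scale, after TMM scaling, which corrects for differences in library composition. Ctnnb1 itself had control levels of 409 and 434 CPM and knockout-labelled levels of 527 and 460 CPM, which did not overlap. The log2 fold change was 0.23 ± 0.20 (SE; edgeR adjusted p = 0.532), and -0.0086 when libraries were scaled by their totals alone. Its count covers the whole gene and every cell of the ventricle, so the labels are not checked by it, and each direction below is that of the libraries labelled knockout. All 10 cardiomyocyte markers were detected in every library, and they summed to 65000 and 58700 CPM without Cre and 78800 and 86700 CPM with it. Of the 10, 5 lay above both controls and 0 below both, beside 26.5% and 29.7% of all genes tested. Mitochondrial transcripts took 5.25% and 7.65% of gene counts without Cre and 10.2% and 14.4% with it. The part of either in the members' values was not tested. Transcripts of T cells stood apart in control 1, where 9 markers summed to 300 CPM against 6.56, 2.21 and 1.76 CPM in the other libraries. Multi-mapped reads took 19.4% and 21.0% of counted reads in the controls and more in the knockout-labelled pair, 23.9% and 29.7%. The labels do not say that samples are separate animals, so p-values measure only the spread between these samples.

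No member passed the test over all genes. The quasi-likelihood test of edgeR, adjusted by Benjamini-Hochberg, called 0.0110% of the 18157 genes tested at an adjusted p under 0.05, and 0 of the 46 members. At a looser adjusted p under 0.1, Ctsf alone was lower, where the background was 2.14% of genes lower and 2.83% higher. limma-voom also called 0 members, and DESeq2 called 5. At an unadjusted p under 0.05, edgeR had 9 members lower and 3 higher in the knockout-labelled libraries. These are 19.6% and 6.52% of the members, beside a background of 11.2% of all genes lower and 11.8% higher. Both knockout-labelled libraries lay below both controls for 19 members (41.3%; background 29.7%) and above both for 7 members (15.2%; background 26.5%). The other 20 members overlapped between groups. The median log2 fold change of the members was -0.12, beside -0.02 over all genes tested. Leaving out 1 library changed the members' median, which ranged from -0.20 without control 2 to 0.03 without control 1. That of all genes stayed between -0.05 and -0.0073. The sum of all 46 genes was 5910 and 5140 CPM without Cre and 4700 and 5330 CPM with it, so the summed levels overlapped between groups.

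**Figure D1:**
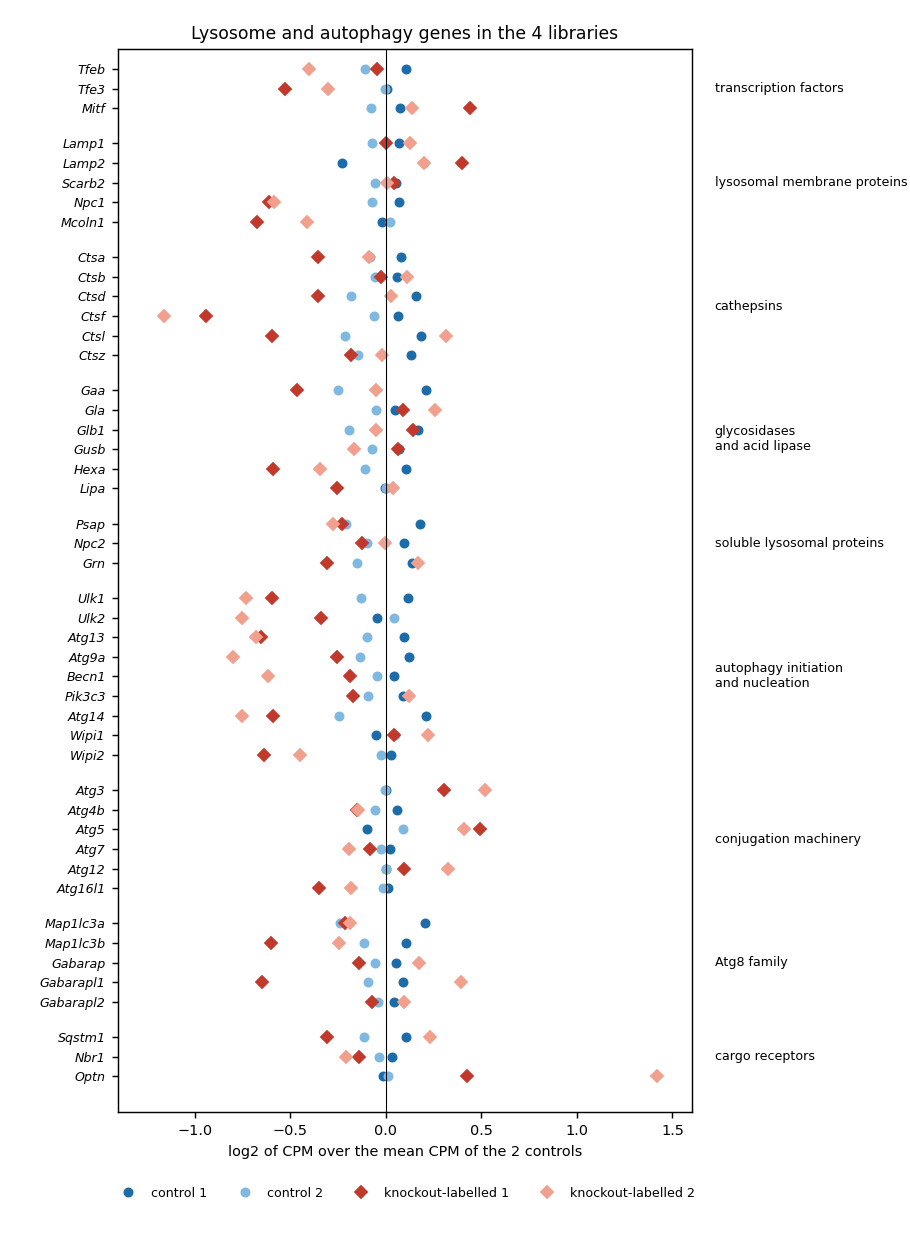
Level of each of the 46 members in each library, as log2 of its CPM over the mean of the 2 controls, grouped by role; circles are controls and diamonds are knockout-labelled libraries. Most initiation and nucleation genes have both diamonds left of both circles, while Ctsl, Gabarapl1, Sqstm1 and Grn have 1 diamond on each side.

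DESeq2 called 4 members lower (Ctsf, Atg13, Ulk1 and Npc1) and 1 higher (Optn) at an adjusted p under 0.05, where its background was 4.91% of genes lower and 6.19% higher (11.1% in either direction). The authors' deposited table listed the same 5 genes in the same directions at its own adjusted p, beside 4.62% of its genes lower and 5.83% higher. DESeq2 called 0 members without control 1, where its calls over all genes were 102 higher and 53 lower, and 0 without control 2, where they were 197 and 324. With all libraries they were 980 and 778. It called 6 members without knockout-labelled 1, beside 1394 genes higher and 1098 lower, and 6 without knockout-labelled 2, beside 575 and 583. Ctsf and Atg13 were called in both of those last fits.

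The transcription factors that drive the lysosomal programme did not pass. Tfeb stood at 52.2 and 45.0 CPM without Cre and at 47.1 and 36.8 CPM with it. Its groups overlapped, and the log2 fold change was -0.21 ± 0.19 (SE; edgeR adjusted p = 0.542). Tfe3, its X-linked relative, measured 34.8 and 34.6 CPM in controls 1 and 2, against 24.1 and 28.1 CPM in the knockout-labelled pair. Both knockout-labelled values lay below both controls (log2 fold change -0.41 ± 0.17, edgeR adjusted p = 0.218). Mitf had control levels of 59.4 and 53.6 CPM and knockout-labelled levels of 76.8 and 62.2 CPM. It was the one factor of the 3 that lay above both controls (0.30 ± 0.18, edgeR adjusted p = 0.354). The values for Tfeb and Tfe3 moved to 0.36 and -0.10 when smooth trends with GC content and length were removed from each library.

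The motif that these factors recognise was looked for in the 250 bases before each RefSeq start (GRCm38.p6), for the 39 members with a window in the RefSeq table. The core CACGTG, which reads the same on both strands and is also bound by other basic helix-loop-helix factors, was present for 9 of 18 lysosomal genes, 3 of 18 autophagy genes and 0 of the 3 transcription factors. It was in 25.5% of the members' windows, in 6.63% of all windows of protein-coding genes and in 6.02% of all windows. The longer TCACGTG, which contains the core and was searched on both strands, was present for 7 lysosomal and 2 autophagy genes and in 3.65% of protein-coding windows. Windows of 70 bases immediately before the outermost annotated start (GENCODE or RefSeq) are given below, 5′ to 3′ on the gene's strand, with each core in capitals, for members with the core whose fold changes differ and for Ulk1 and Atg13, which were called lower by DESeq2.
Lamp1, chr8:13159091-13159160 (+): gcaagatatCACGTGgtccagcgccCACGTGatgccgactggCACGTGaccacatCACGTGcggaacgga
Mcoln1, chr8:3500387-3500456 (+): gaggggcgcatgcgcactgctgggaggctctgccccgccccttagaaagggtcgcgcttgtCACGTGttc
Glb1, chr9:114401006-114401075 (+): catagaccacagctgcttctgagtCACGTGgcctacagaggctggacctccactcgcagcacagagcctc
Atg3, chr16:45158715-45158784 (+): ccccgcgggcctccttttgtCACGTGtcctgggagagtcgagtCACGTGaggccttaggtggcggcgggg
Ctsf, chr19:4855060-4855129 (+): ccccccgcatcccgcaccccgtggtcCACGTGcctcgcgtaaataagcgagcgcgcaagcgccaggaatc
Ulk1, chr5:110810098-110810167 (-): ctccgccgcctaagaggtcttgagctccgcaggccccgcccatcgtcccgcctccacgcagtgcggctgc
Atg13, chr2:91710593-91710662 (-): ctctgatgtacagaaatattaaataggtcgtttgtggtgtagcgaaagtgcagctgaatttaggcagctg
Lamp1 held 4 cores and Atg3 held 2 in these windows, and the windows of Ulk1 and Atg13 held 0. These matches describe the letters only, since binding was not measured. The 12 members with a core before their start had a median log2 fold change of -0.11, with 5 positive and 7 negative values between -1.05 and 0.45. The 27 members whose windows lacked it had a median of -0.10, with 7 positive and 20 negative values.

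Of the 5 lysosomal membrane proteins, Npc1 and Mcoln1 were lower at an unadjusted p under 0.05 in edgeR. Lamp1, which with Lamp2 lines the lysosomal membrane, stood at 272 and 246 CPM without Cre and at 259 and 283 CPM with it. Scarb2, the receptor that carries glucocerebrosidase to the lysosome, was at 152 and 141 CPM against 151 and 147 CPM. Both overlapped between groups, with log2 fold changes of 0.07 ± 0.18 and 0.02 ± 0.16 (SE). Npc1, the membrane protein that exports cholesterol from the lysosome (chr18:12189692-12236400, GRCm38, reverse strand), measured 115 and 104 CPM in controls 1 and 2, against 71.8 and 73.1 CPM in the knockout-labelled pair. The groups did not overlap, and the knockout-labelled values were nearly equal. Its log2 fold change was -0.60 ± 0.16 (SE; edgeR adjusted p = 0.117; DESeq2 adjusted p = 0.0420), and -0.49 with the GC content and length trends removed. Mcoln1, the calcium channel TRPML1 of the lysosomal membrane, had control levels of 48.1 and 49.5 CPM and knockout-labelled levels of 30.6 and 36.6 CPM. These groups did not overlap either (-0.54 ± 0.17, edgeR adjusted p = 0.142), and the value was -0.31 after those trends were removed. Lamp2, the X-linked gene mutated in Danon cardiomyopathy, stood at 109 and 147 CPM without Cre and at 169 and 147 CPM with it. The higher control and the lower knockout-labelled library thus had nearly the same level.

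Of the cathepsins, the proteases of the lysosome, 1 stood apart. Ctsf (ENSMUSG00000083282, chr19:4855130-4860918, forward strand), a cysteine protease, measured 63.3 and 58.0 CPM in controls 1 and 2, against 31.6 and 27.1 CPM in the knockout-labelled pair. Both knockout-labelled values lay far below both controls, with group means of 60.7 CPM without Cre and 29.3 CPM with it. The log2 fold change was -1.05 ± 0.17 (SE; edgeR adjusted p = 0.0925; DESeq2 adjusted p = 2.27e-04), the lowest of the 46 members. It ranged from -1.11 to -0.93 when each library was left out and was -0.69 with the GC content and length trends removed. Its adjusted p in edgeR was 0.0301 with no filter on low counts, where edgeR called 554 of the 31993 genes tested. The abundant cathepsins did not follow Ctsf. Ctsb, a cysteine protease, had control levels of 316 and 292 CPM and knockout-labelled levels of 299 and 328 CPM, and Ctsd, the main aspartic protease, was at 329 and 260 CPM against 230 and 300 CPM. Both overlapped between groups, with log2 fold changes of 0.04 ± 0.18 and -0.15 ± 0.23. Ctsl, another cysteine protease, separated the knockout-labelled libraries from each other, at 219 and 412 CPM around controls of 377 and 286 CPM. Ctsa and Ctsz, the remaining members, had log2 fold changes of -0.22 and -0.10. In Ctsd, 34.4% of the exon bases are shared on the same strand with Gm49369, so its count is uncertain, as is that of Ctsl, which overlaps the antisense gene Gm47123 over 26.8% of its exon bases and shares sequence with the pseudogene Gm49230.

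Of the glycosidases and acid lipase, Hexa was the one with an unadjusted p under 0.05 in edgeR. Per kilobase of exon, Hexa and Gaa were the most abundant of the 6, at 25.1 and 16.4 CPM per kilobase over the 4 libraries, and Gla the least, at 1.19. Hexa, the alpha subunit of the hexosaminidase that degrades gangliosides, stood at 62.3 and 53.7 CPM without Cre and at 38.5 and 45.7 CPM with it. The groups did not overlap (log2 fold change -0.46 ± 0.17, edgeR adjusted p = 0.188). Gaa, the acid alpha-glucosidase that degrades lysosomal glycogen and is deficient in Pompe disease, measured 98.3 and 71.5 CPM in controls 1 and 2, against 61.5 and 81.9 CPM in the knockout-labelled pair. Its groups overlapped and its log2 fold change of -0.24 ± 0.23 was 0.21 with the GC content and length trends removed. The other 4, Gla, Glb1, Gusb and Lipa, had log2 fold changes between -0.10 and 0.18.

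The soluble lysosomal proteins held the most abundant lysosomal gene per length. Psap, the precursor of the saposins that present lipids to hydrolases, was at 221 CPM per kilobase over the 4 libraries. It had control levels of 747 and 571 CPM and knockout-labelled levels of 563 and 545 CPM, so that control 1 alone was high and control 2 was close to both knockout-labelled libraries. Grn, which encodes progranulin, stood at 180 and 147 CPM without Cre and at 132 and 184 CPM with it. Npc2, the soluble partner of Npc1 that binds cholesterol, overlapped between groups as Grn did. The log2 fold changes of the 3 were -0.25, -0.05 and -0.07, and none had an unadjusted p under 0.05 in edgeR. Npc1 and Npc2, which act in series, thus had log2 fold changes of -0.60 and -0.07, whose difference was not tested.

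The genes of autophagy initiation and nucleation were the role with the lowest median. Of 9 members, 7 lay below both controls in both knockout-labelled libraries and 0 lay above both, beside backgrounds of 29.7% and 26.5% of genes. In edgeR 5 were lower and 0 higher at an unadjusted p under 0.05, beside 11.2% and 11.8% of all genes. DESeq2's calls included 2 of them, both lower, beside 4.91% of all genes. The median log2 fold change was -0.54, beside -0.02 over all genes. Summed over the 9 genes, the level was 641 and 601 CPM without Cre and 477 and 450 CPM with it. With library totals alone in place of TMM the role's median was -0.77 while that of all genes was -0.26, and after removal of the GC content and length trends it was -0.22. With 1 library left out, the role's median was -0.42 without control 1 and -0.56 without control 2. It was -0.63 without knockout-labelled 1 and -0.34 without knockout-labelled 2.

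The kinase complex that starts autophagy supplied several of these. Ulk1, the initiating kinase (chr5:110784488-110810097, GRCm38, reverse strand), measured 110 and 92.8 CPM in controls 1 and 2, against 67.0 and 61.1 CPM in the knockout-labelled pair. Both knockout-labelled values lay below both controls, with a log2 fold change of -0.67 ± 0.17 (SE; edgeR adjusted p = 0.113; DESeq2 adjusted p = 0.0328) that was -0.22 after the trends were removed. Ulk2, its close relative, had control levels of 108 and 115 CPM and knockout-labelled levels of 88.0 and 66.2 CPM (-0.54 ± 0.19, edgeR adjusted p = 0.177). Knockout-labelled 2 was the lower of the pair in Ulk2. Atg13, the adaptor of the kinase (chr2:91674618-91710576, reverse strand), stood at 93.5 and 81.7 CPM without Cre and at 55.6 and 54.6 CPM with it. The knockout-labelled libraries were nearly equal, and the log2 fold change was -0.67 ± 0.16 (SE; edgeR adjusted p = 0.103; DESeq2 adjusted p = 0.0241), or -0.45 after the trends were removed. Rb1cc1 and Atg101, the other 2 subunits of this complex, were looked up after the values of Ulk1 and Atg13 were seen. They had log2 fold changes of 0.26 ± 0.18 and 0.36 ± 0.38, and their groups overlapped.

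**Figure D2:**
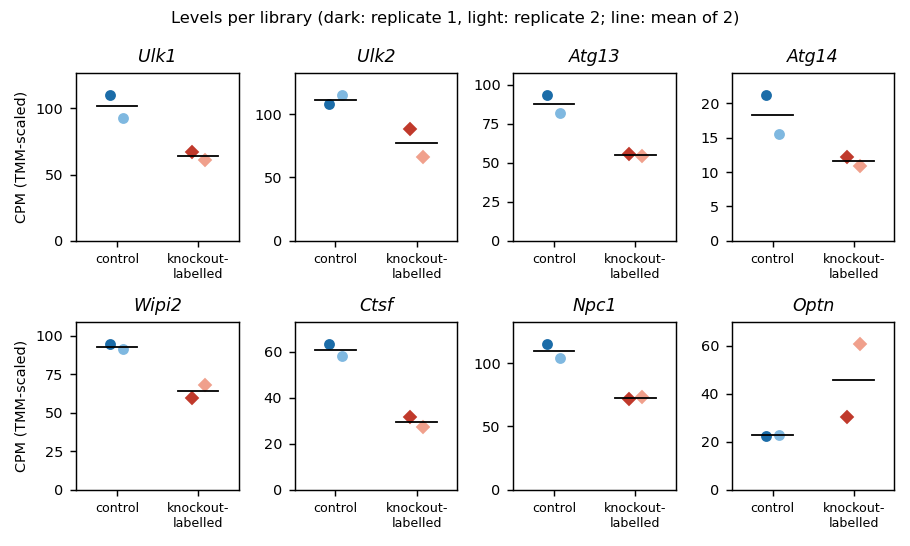
TMM-scaled CPM of 8 members in each library, with a line at the mean of the 2 libraries of a group; each panel starts at 0. Both knockout-labelled points lie below both controls for Ulk1, Ulk2, Atg13, Atg14, Wipi2, Ctsf and Npc1, and the Optn points of the knockout-labelled libraries lie at 30.5 and 60.8 CPM.

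Membrane nucleation and expansion factors varied. Atg14, which directs the lipid kinase complex to autophagy, measured 21.2 and 15.5 CPM in controls 1 and 2, against 12.2 and 10.9 CPM in the knockout-labelled pair. Its control 1 was the high library, and the log2 fold change of -0.67 ± 0.24 (SE; edgeR adjusted p = 0.178) was -0.42 without control 1. Wipi2, which binds the lipid made by that complex and recruits the conjugation machinery, had control levels of 94.6 and 91.2 CPM and knockout-labelled levels of 59.7 and 68.0 CPM (-0.54 ± 0.16, edgeR adjusted p = 0.135). The gap between its groups was larger than either gap within a group, and its value was -0.21 with the GC content and length trends removed. Wipi1, a relative of Wipi2 and per kilobase the most abundant of the 9, stood at 81.1 and 86.9 CPM without Cre and at 86.4 and 98.0 CPM with it. Wipi1 overlapped between groups, and its log2 fold change was 0.13 ± 0.16. Atg9a, the transmembrane lipid scramblase, and Becn1, the regulatory subunit of the lipid kinase complex, lay below both controls with log2 fold changes of -0.50 and -0.38. Without knockout-labelled 2 these were -0.25 and -0.17, and Atg9a was at -0.13 after the trends were removed. Pik3c3, the catalytic subunit, had a value of -0.02. Exons of Becn1 overlap those of Cntd1 on the other strand over 43.9% of their length, and 31.8% of the exon bases of Atg9a are shared with Gm29253 on the same strand, so both counts are uncertain.

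The conjugation machinery was divided: 3 of its 6 genes lay above both controls and 3 below both, beside 26.5% and 29.7% of all genes. Atg3, the enzyme that transfers LC3 to lipid, measured 33.9 and 33.8 CPM in controls 1 and 2, against 41.8 and 48.5 CPM in the knockout-labelled pair (log2 fold change 0.42 ± 0.16, edgeR adjusted p = 0.198). Atg5, which is joined to Atg12 in the complex that aids this transfer, had control levels of 18.5 and 21.1 CPM and knockout-labelled levels of 27.9 and 26.3 CPM (0.45 ± 0.18, edgeR adjusted p = 0.204). Atg12 also lay above both controls, with a value of 0.21 that was -0.03 with library totals alone. Atg16l1, the third part of that complex, Atg4b, the protease that primes LC3, and Atg7, the activating enzyme of both systems, lay below both controls with values of -0.27, -0.15 and -0.14. The 3 genes that lay above had a GC content between 40.1% and 44.6% and the 3 that lay below between 45.3% and 53.0%. After the trends with GC content and length were removed, the values of Atg3, Atg5 and Atg12 were 0.10, 0.23 and 0.23. Those of Atg16l1, Atg4b and Atg7 were -0.19, 0.06 and 0.17.

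The Atg8 family, the small ubiquitin-like proteins that coat the autophagosome, held the 2 most abundant autophagy genes per length. Map1lc3a was at 243 CPM per kilobase and Gabarap at 126 over the 4 libraries. Map1lc3a stood at 354 and 260 CPM without Cre and at 265 and 270 CPM with it, so that control 1 alone was high. Gabarap measured 239 and 221 CPM in controls 1 and 2, against 209 and 259 CPM in the knockout-labelled pair. Both overlapped between groups, with log2 fold changes of -0.20 ± 0.22 and 0.03 ± 0.19. Map1lc3b was the member of the family that lay below both controls (-0.41 ± 0.21, edgeR adjusted p = 0.298). Its transcript shares stretches of 96.1% to 99.6% identity with 4 processed pseudogenes, and that of Gabarapl2 shares stretches of 96.6% to 99.4% with 3, so reads can be lost or exchanged there. Gabarapl1 stood at 34.0 CPM in knockout-labelled 1 and 69.8 CPM in knockout-labelled 2, on either side of the controls at 56.6 and 49.8 CPM; an antisense gene overlaps 28.3% of its exon bases. That gap within the group, 2.05-fold, was the widest among the 46 members.

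Cargo receptors had the member with the largest positive value. Optn, which encodes optineurin, a receptor for damaged mitochondria and bacteria (chr2:5020642-5064051, reverse strand), had control levels of 22.5 and 22.9 CPM and knockout-labelled levels of 30.5 and 60.8 CPM. Both knockout-labelled values lay above both controls, and they differed 1.99-fold from each other. The log2 fold change was 1.00 ± 0.33 (SE; edgeR adjusted p = 0.153; DESeq2 adjusted p = 0.0405). Without knockout-labelled 2 it was 0.43, and without knockout-labelled 1 it was 1.47. It was 1.10 with the GC content and length trends removed. Sqstm1, which encodes p62, stood at 293 and 252 CPM without Cre and at 220 and 320 CPM with it, and Nbr1, its relative, was at 219 and 209 CPM against 194 and 185 CPM. Sqstm1 overlapped and Nbr1 lay below both controls, with log2 fold changes of -0.01 ± 0.24 and -0.18 ± 0.17.

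**Figure D3:**
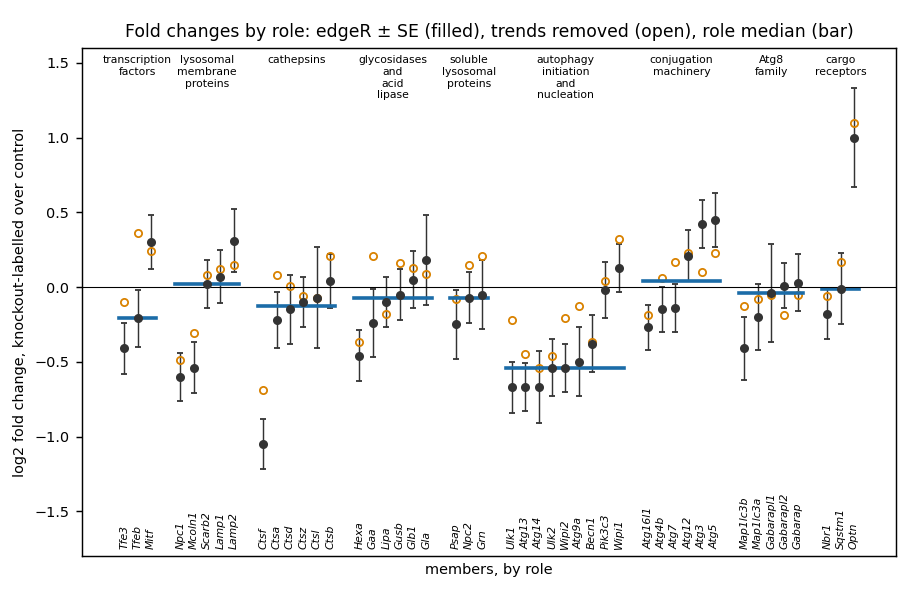
Log2 fold change of each member, knockout-labelled over control, by role; filled points are edgeR values with their SE, open circles the same with the GC content and length trends removed, and bars the role medians. The median of initiation and nucleation is -0.54, and the other 8 role medians lie between -0.21 and 0.04.

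Set side by side, the lysosomal genes and the autophagy factors had similar medians. The median log2 fold change was -0.09 for the 20 lysosomal genes and -0.15 for the 23 autophagy factors. At an unadjusted p under 0.05 edgeR had 4 lysosomal genes lower and 0 higher, and 5 autophagy factors lower and 3 higher. These are 20.0% and 21.7% lower and 0% and 13.0% higher, beside 11.2% and 11.8% of all genes. Both knockout-labelled libraries lay below both controls for 6 lysosomal genes (30.0%) and 12 autophagy factors (52.2%), beside 29.7% of all genes. They lay above both for 2 (10.0%) and 4 (17.4%), beside 26.5%. The 5 autophagy factors lower at an unadjusted p under 0.05 were all of initiation and nucleation. That role also held 7 of the 12 autophagy factors below both controls. The ratio of summed lysosomal to summed autophagy CPM was 1.42 and 1.35 without Cre and 1.43 and 1.44 with it, so the groups were separated by a narrow margin. The lysosomal median changed sign with the processing, being 0.03 without control 1, 0.04 without knockout-labelled 1 and 0.08 after the trends were removed. The autophagy median stayed between -0.20 and -0.06 over the alternatives that kept TMM or DESeq2 scaling and was -0.39 with library totals alone.

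Differences within the groups were as large as those between them for many members. In 24 of 46 members the knockout-labelled libraries differed from each other by more than the fitted log2 difference between groups. A gap between single libraries varies more than a difference between means of 2. No share over all genes was computed for this count or for the next ones. Control 1 was higher than control 2 for 39 members, and knockout-labelled 2 was higher than knockout-labelled 1 for 29. Among those 29, the widest gaps after Gabarapl1 and Optn were in Ctsl (1.88-fold), Sqstm1 (1.46-fold) and Grn (1.39-fold). In the other direction Atg9a in knockout-labelled 2 was at 0.685 times its level in knockout-labelled 1. Knockout-labelled 2 was also the one library with Xist, the RNA of the inactive X chromosome, at 602 CPM against at most 0.327 CPM elsewhere, and it had no count of the Y-linked Kdm5d, which was between 37.4 and 42.4 CPM elsewhere. Of the X-linked members, Tfe3 and Gla were higher in knockout-labelled 2 than in knockout-labelled 1 and Lamp2 was lower. The part of sex in the members' values was not tested.

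Members with a higher GC content tended to have lower values. Over the 46 members, which share the 4 libraries, Spearman's rho between log2 fold change and the GC content of the longest transcript was -0.44 and Pearson's r was -0.39. Over 12764 protein-coding genes with a mean count of 50 or more, rho was -0.37. In those genes the median log2 fold change was 0.32 at a GC content of 35% to 40% and -0.34 at 60% to 65%. Members ranged from 38.7% for Lamp2 to 63.2% for Tfeb. With these trends removed, edgeR had an unadjusted p under 0.05 for 2 members on the higher side and 6 on the lower. The share of all genes at that threshold was not computed with the trends removed. Of the members' values, 23 were positive and 23 negative.

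**Figure D4:**
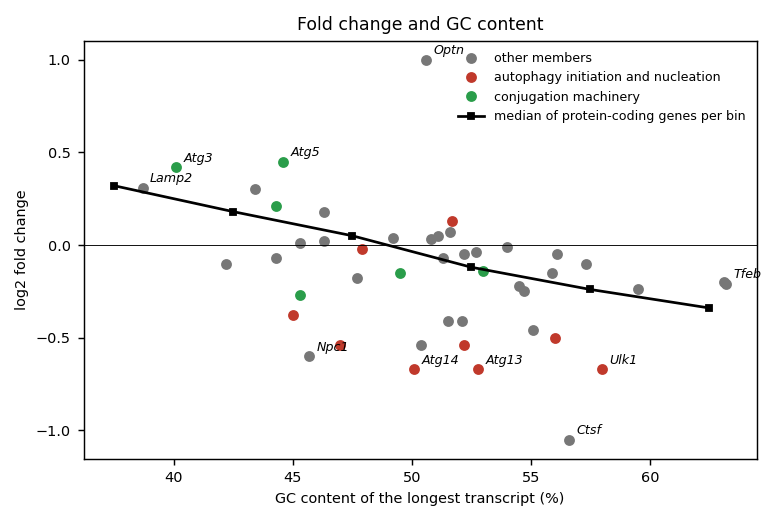
Log2 fold change of each member against the GC content of its longest transcript, with the median over protein-coding genes in bins of GC content as a black line. The line falls from 0.32 to -0.34, the lowest GC contents belong to Lamp2 and Atg3 with positive values and Lipa with a negative one, and Ctsf, Npc1, Atg13 and Atg14 lie below it.

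Markers of other cells were read beside these values, since macrophages are rich in lysosomes. In bulk tissue, fewer cells of a type and less RNA per cell cannot be told apart. The 14 macrophage markers summed to 339 and 216 CPM without Cre and to 174 and 222 CPM with it, and none was at 0. Ptprc, which T cells also express, was at 54.1 CPM in control 1 and between 3.25 and 5.64 CPM elsewhere. Without it the other 13 summed to 285 and 211 CPM against 170 and 219 CPM. Of the 14, 9 lay below both controls and 1 above both, beside 29.7% and 26.5% of all genes. Csf1r, the receptor for the macrophage growth factor, was at 36.1 and 31.9 CPM against 21.7 and 19.8 CPM, and Mrc1, the mannose receptor, was at 18.3 and 17.6 CPM against 27.8 and 41.9 CPM. The lysosomal sums were 3380 and 2880 CPM without Cre and 2680 and 3070 CPM with it. They put the libraries in the same order as the macrophage sums, with control 1 highest and knockout-labelled 1 lowest. The autophagy sums, 2380 and 2130 CPM without Cre and 1870 and 2130 CPM with it, were also highest and lowest in those libraries. Fibroblast markers summed to 2910 and 4540 CPM without Cre and to 4620 and 4030 CPM with it, and endothelial markers to 1500 and 1670 CPM in both groups. Erythroid markers, of which 7 of 8 were matched, summed to 1090 and 1120 CPM without Cre and to 765 and 662 CPM with it. The part of these cells in the members' values was not tested.

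The wider pathway was followed in 134 further genes in 5 lists, all of which were tested. edgeR called 0 of them, with 19 lower and 7 higher at an unadjusted p under 0.05, while by DESeq2 10 were lower and 2 higher. The edgeR counts are 14.2% and 5.22% of the list, beside 11.2% and 11.8% of all genes, and DESeq2's background was 4.91% lower and 6.19% higher. The median log2 fold change over the 134 was 0.01. Of the 28 other autophagy factors, 9 were lower and 2 higher at an unadjusted p under 0.05, and the median was -0.23. Of 18 subunits and accessory proteins of the V-ATPase, the proton pump that acidifies the lysosome, 1 was lower and 1 higher, the median was 0.26, and the knockout-labelled pair lay above the controls in 8 genes (44.4%; background 26.5%) and below them in 4 (22.2%; background 29.7%). Of 40 other lysosomal proteins, 3 were lower and 1 higher, of 28 genes of lysosomal sorting and nutrient sensing 4 and 2, and of 20 autophagosome fusion genes 2 and 1. Medians of these last 3 lists were -0.10, 0.10 and -0.04. With library totals alone the V-ATPase median was 0.02 and that of the other autophagy factors -0.48, and with the GC content and length trends removed they were 0.15 and -0.13. The medians of the last 3 lists became 0.01, 0.07 and 0.12 with those trends removed.

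Among these genes, the 5 with the smallest p on the lower side had values between -1.03 and -0.83, each with an edgeR adjusted p of 0.0925. Slc38a9, the lysosomal arginine sensor of the mTORC1 kinase, measured 39.7 and 36.4 CPM in controls 1 and 2, against 18.0 and 19.3 CPM in the knockout-labelled pair. Atg16l2, a relative of Atg16l1, was at 36.3 and 34.6 CPM against 17.8 and 17.6 CPM. Tcirg1, an a subunit of the V-ATPase, was at 40.6 and 49.0 CPM against 20.6 and 24.9 CPM. In these 3 genes the knockout-labelled libraries lay close together and well below the controls. Idua, the iduronidase of glycosaminoglycan breakdown, was at 29.2 and 30.6 CPM against 16.7 and 16.9 CPM, and Tecpr1, a tether between autophagosome and lysosome, was at 71.7 and 60.1 CPM against 35.3 and 39.0 CPM. After removal of the trends the value of Tecpr1 was -0.27 and that of Slc38a9 was -0.89.

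On the higher side the 5 genes were Asah1, Atp6v1d, Rheb, Vmp1 and Vamp7, with log2 fold changes between 0.56 and 0.78. Asah1, the acid ceramidase, had control levels of 39.2 and 43.6 CPM and knockout-labelled levels of 58.6 and 63.7 CPM. Atp6v1d, a subunit of the V-ATPase stalk, was at 94.2 and 96.5 CPM against 132 and 188 CPM. Rheb, the small GTPase that activates mTORC1, was at 80.8 and 91.0 CPM against 119 and 139 CPM. None overlapped between groups, and their edgeR adjusted p-values were 0.128, 0.134 and 0.137. The log2 fold change of Atp6v1d was 0.74, and 0.47 without knockout-labelled 2. Tsc1 and Tsc2, whose products inhibit Rheb, were looked up after these values were seen and lay below both controls with log2 fold changes of -0.64 ± 0.16 and -0.62 ± 0.16 (edgeR adjusted p = 0.112 and 0.120). These values were -0.31 and -0.23 after the trends were removed, while that of Rheb was 0.62. Vmp1, a scramblase of the endoplasmic reticulum that shares exon bases with the microRNA gene Mir21a, was at 32.3 and 39.7 CPM against 46.1 and 71.5 CPM. Its log2 fold change of 0.71 was 0.37 without knockout-labelled 2. Vamp7, a vesicle fusion protein, was at 6.28 and 9.79 CPM against 13.5 and 14.2 CPM, and its log2 fold change of 0.78 was 0.50 without control 1. Neither overlapped between groups, and Vamp7 lies on an unplaced scaffold and had no GC value.

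**Figure D5:**
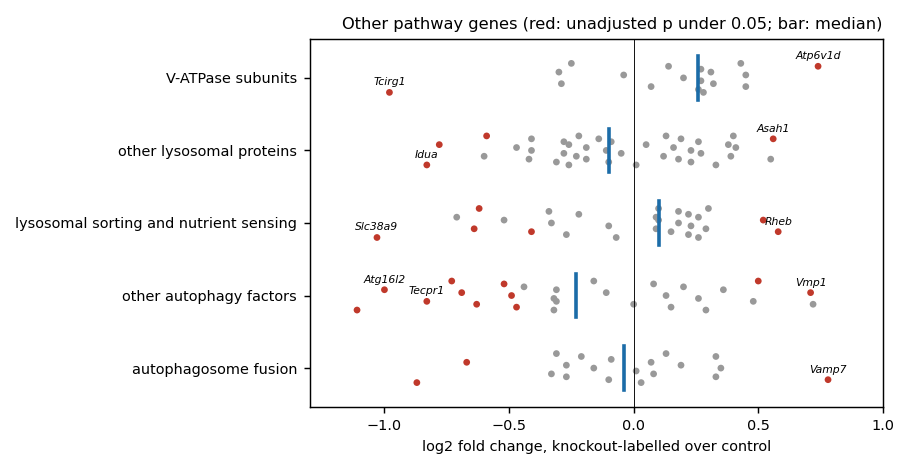
Log2 fold change of 134 other genes of the pathway in 5 lists; red points have an unadjusted p under 0.05 in edgeR and bars mark list medians. The V-ATPase median is 0.26 and that of the other autophagy factors -0.23, and points lie on both sides of 0 in each list.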

How the data were processed

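RNA from ventricles of newborn mice at postnatal day 1 went into poly(A)-enriched, stranded libraries, per the labels' protocols (1.5 µg of total RNA and 20 ng of enriched RNA each). The submitters' processing notes name STAR 2.5.3a for alignment, HTSeq 0.6.1 for counting and the build GRCm38; neither the annotation release nor the strand setting of the counting is given in the sources used here. The deposited counts are unscaled whole reads. A table of the whole series repeats them, with 0 of its 4 count columns unequal to the per-sample files, and holds the authors' deposited log2 fold changes and adjusted p-values, for which the notes name DESeq2. Its 4 columns of normalized values per sample were not used.

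The 5 HTSeq summary categories were left out of library sizes. Reads outside genes made up 3.18% to 6.45% of counted reads and ambiguous reads 3.90% to 4.85%. Of 53465 genes, 53360 were matched to GENCODE vM21 by identifier. The counts went into edgeR 4.0.16 under R 4.3.3. Its filterByExpr left 18157 genes, libraries were scaled by TMM, and groups were compared by the quasi-likelihood test with p-values adjusted by Benjamini-Hochberg across every gene tested and called at 0.05. Errors written with ± beside log2 fold changes are SEs from 2 libraries per group. Alternatives were DESeq2 1.42.0, limma-voom (limma 3.58.1), other scalings, no filter, a replicate block, each library left out, and removal of GC content and length trends fitted per library with mgcv. The fits were also run on simulated counts with known changes, to check the signs and sizes returned. That check set no limit on false calls. Overlaps and near-identical transcripts (95% identity over 200 bases) were taken from GENCODE vM21, and promoter sequences from RefSeq on GRCm38.p6.

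The members, the lists and the tests were chosen with earlier results of these data known. Values in every library are given for members with an unadjusted edgeR p or a DESeq2 adjusted p under 0.05, for the transcription factors, for the 2 most abundant members per kilobase of each role, which makes 27 members, and for 5 pathway genes in each direction. Library values of Lamp2, Ctsl and Gabarapl1, and fold changes of Rb1cc1, Atg101, Tsc1 and Tsc2, were added after they were seen. A count of 0 allows up to 0.0657 to 0.0882 CPM in these libraries (3 counts, before TMM scaling, counting error only), far below the least abundant member, Gla.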

Additional observations from a re-analysis of the deposited data

How the results depend on the processing

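All members had over 100 counts in each library, with the fewest in Gla, whose SE was 0.30. The part of depth in the members' SEs was not tested. Genes called over all genes numbered 2 in edgeR, 1758 in DESeq2, 0 in limma-voom and 554 with no filter on low counts, and ranged from 0 to 30 with 1 library left out. Members called were 0 in edgeR, 5 in DESeq2 and 1 with no filter, and pathway genes called were 0, 12 and 3. DESeq2's 5 members became 0 to 6 with 1 library left out. The share of all genes at an unadjusted p under 0.05 was computed for the main edgeR fit only. Counts of members at that threshold under other settings therefore have no background. Members at an unadjusted p under 0.05 were 3 higher and 9 lower, against 1 and 15 with library totals alone and 1 and 9 with no filter. With 1 library left out they ranged from 0 to 4 higher and 1 to 10 lower, and initiation and nucleation members from 0 to 6 lower.

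Scaling by library totals alone shifted the median of all genes from -0.02 to -0.26, and those of lysosomal, autophagy and initiation genes to -0.34, -0.39 and -0.77. The initiation median was -0.51 in DESeq2 and with DESeq2's size factors. Removal of the GC content and length trends gave medians of 0.08, -0.06 and -0.22 and left 3 initiation genes at an unadjusted p under 0.05. With 1 library left out the medians ranged from -0.23 to 0.04, -0.20 to -0.09 and -0.63 to -0.34. Each such fit leaves 1 library in a group, which is assumed to vary like the other group.

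Some values changed sign, listed here for the genes followed under every setting and not for all members. Over all 46 members, 14 values were positive in the main fit, 5 with library totals alone and 23 with the trends removed. With library totals alone Lamp1 was at -0.18, Scarb2 -0.22, Ctsb -0.20, Wipi1 -0.11, Gabarap -0.22 and Ctnnb1 -0.0086. With the trends removed Tfeb was at 0.36, Ctsd 0.0082, Gaa 0.21, Grn 0.21, Gabarap -0.05 and Sqstm1 0.17. Sqstm1 was at 0.01 in DESeq2 and 0.02 with its size factors. With 1 library left out, the ranges of 17 of 46 members crossed 0, the widest being those of Gabarapl1 (-0.63 to 0.44) and Ctsl (-0.59 to 0.37). Among the genes followed under every setting these were Scarb2 (-0.03 to 0.07), Ctsb (-0.01 to 0.16), Ctsd (-0.34 to 0.08), Gaa (-0.45 to 0.0034), Grn (-0.29 to 0.22), Map1lc3a (-0.39 to 0.04), Gabarap (-0.13 to 0.22) and Sqstm1 (-0.30 to 0.29). The causes were not tested.

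Libraries share replicate numbers, and same-numbered libraries deviated from their group means with a correlation of -0.14 across genes. Within a group of 2 libraries the deviations mirror each other. The correlation is therefore a single value and cannot show whether the numbers pair the libraries. With the replicate number as a block edgeR called 18 genes and 0 members. At an unadjusted p under 0.05, 1 member was higher and 8 were lower, against 3 and 9 in the main fit. Pairing control 1 with knockout-labelled 2, added after seeing the data, gave 941 genes, 1 member and 7 pathway genes called.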
